A study of Rattus norvegicus with 45 samples.

Results

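The genes described here encode the muscle nicotinic acetylcholine receptor and proteins that hold it at the neuromuscular synapse. They comprise the receptor subunits Chrna1, Chrnb1, Chrnd, Chrne and Chrng, the receptor tyrosine kinase Musk, the scaffold Rapsn and the enzyme Ache. Probe sets were chosen by these 8 gene symbols in the platform annotation. Of the 8, 7 matched by symbol, among 14217 symbols in that annotation (9 probe sets in all, since Chrnb1 and Rapsn had more than 1). No probe set was matched to the symbol Ache, which was not analysed here. After the filter on low signal, 6 genes were tested: Chrna1, Chrnb1, Chrnd, Chrne, Musk and Rapsn. Chrng was below the filter and is given as values only. The filter kept probe sets whose mean log2 value over all arrays reached 6.03, a signal of about 52.9, and it is blind to group.

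Total RNA of the gastrocnemius, a mostly fast hindlimb muscle, and of the soleus, a mostly slow muscle, was measured on 45 Affymetrix rat arrays, 30 of gastrocnemius and 15 of soleus. All animals were female Sprague Dawley rats dosed once daily for 14 days, either with the vehicle, 0.5% methylcellulose, or with cerivastatin, a statin that inhibits cholesterol synthesis. Gastrocnemius was taken at 0 (vehicle), 0.1, 0.5 and 1.0 mg/kg/day, from animals that either rested or ran on a treadmill (20 min/day at 20 m/min, 5 days/week). Soleus was taken at vehicle and 1.0 mg/kg/day only, again at rest and with running. Soleus samples whose title names no exercise were taken as unexercised. These 12 groups held 4 animals each (9 groups) or 3 (unexercised gastrocnemius at 1.0, exercised gastrocnemius at 0.5, unexercised soleus at 1.0), and the submitters call the replicates biological. The questions were what the drug does, what exercise adds to it, and whether a muscle's fibre type bears on its sensitivity. Input RNA was about 4 µg for gastrocnemius and 3 µg for soleus, so that input and muscle cannot be told apart.

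At the adult neuromuscular junction, acetylcholine released by the motor nerve opens a channel of 5 subunits on the muscle fibre. The adult channel contains alpha 1, beta 1, delta and epsilon subunits, and in the fetal channel the gamma subunit stands in the place of epsilon. Nerve-derived agrin acts through Lrp4 and Musk, and the scaffold protein rapsyn (Rapsn) then clusters the receptors under the nerve terminal. In innervated fibres these genes are transcribed mainly by nuclei beneath the synapse. Loss of nerve input, or regeneration of a fibre, is known to raise alpha 1, delta, gamma and Musk along the whole fibre through myogenic factors such as myogenin (Myog), which bind E-boxes. Synaptic transcription is known to use an ETS-factor site called the N-box.

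The start regions of 4 subunit genes are shown because Chrnd rose and Chrne fell in exercised gastrocnemius at 1.0 mg/kg/day, and Chrng and Chrna1 are the classical E-box genes. Each sequence runs 5′ to 3′ on the gene's own strand, from 250 bases before to 50 bases after the annotated start, from RefSeq on the GRCr8 assembly. Capitals mark E-boxes (CANNTG, which reads as itself on the opposite strand) and the N-box core (CCGGAA, or TTCCGG on the opposite strand). The regions are chr3:78877304-78877603 on the minus strand for Chrna1, chr9:95310066-95310365 on the plus strand for Chrnd, chr9:95325734-95326033 on the plus strand for Chrng and chr10:55834105-55834404 on the minus strand for Chrne.
Chrna1: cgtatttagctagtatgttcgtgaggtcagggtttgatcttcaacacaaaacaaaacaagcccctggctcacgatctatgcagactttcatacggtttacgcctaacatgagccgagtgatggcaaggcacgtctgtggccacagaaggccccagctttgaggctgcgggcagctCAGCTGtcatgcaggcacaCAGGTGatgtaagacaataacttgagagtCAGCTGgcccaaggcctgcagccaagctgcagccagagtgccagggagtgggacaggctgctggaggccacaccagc
Chrng: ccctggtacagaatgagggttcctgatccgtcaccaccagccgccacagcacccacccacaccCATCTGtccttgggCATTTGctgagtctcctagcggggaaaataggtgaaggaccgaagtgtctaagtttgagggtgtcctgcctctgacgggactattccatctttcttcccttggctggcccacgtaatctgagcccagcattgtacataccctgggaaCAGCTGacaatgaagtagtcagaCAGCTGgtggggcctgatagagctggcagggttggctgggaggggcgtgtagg
Chrnd: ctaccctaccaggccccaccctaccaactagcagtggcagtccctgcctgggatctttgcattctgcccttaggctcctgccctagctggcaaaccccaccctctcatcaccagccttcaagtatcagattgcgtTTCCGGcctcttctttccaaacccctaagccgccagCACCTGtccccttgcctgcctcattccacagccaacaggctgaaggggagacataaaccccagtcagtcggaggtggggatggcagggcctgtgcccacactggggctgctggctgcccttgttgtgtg
Chrne: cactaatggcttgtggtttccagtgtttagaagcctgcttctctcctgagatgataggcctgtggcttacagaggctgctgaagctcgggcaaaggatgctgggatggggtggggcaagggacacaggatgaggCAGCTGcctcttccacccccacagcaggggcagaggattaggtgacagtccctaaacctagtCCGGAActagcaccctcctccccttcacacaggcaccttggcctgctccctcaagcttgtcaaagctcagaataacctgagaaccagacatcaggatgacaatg

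Chrna1 held 3 E-boxes, at -75, -56 and -27 from the start, of which those at -75 and -27 read CAGCTG. Chrng held 4 E-boxes, with CAGCTG at -26 and -3. Chrnd held 1 E-box at -79 and an N-box core, written TTCCGG, at -115. Chrne held the N-box core CCGGAA at -54 and 1 E-box, CAGCTG, at -116. No E-box overlapped an N-box core in these 4 regions. Among 33469 rat start regions of the same 300 bases, 72.1% held CANNTG, 15.1% held CAGCTG, 1.69% held it 2 or more times, and 15% held CCGGAA on either strand. These matches describe letters in a window and show no binding. Chrnd and Chrng lie next to each other on chromosome 9. Chrnb1 and Musk each held 3 E-boxes, 1 of them CAGCTG, and no N-box core.

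The values are MAS5 signals, in which each array is scaled to a common level: the trimmed mean of every array lay between 600.2 and 600.3. RNA integrity was read from beta-actin, as 5' over 3' probe signal, which had a median of 0.400 and a maximum of 0.707. This ratio was lowest in replicate 3 of unexercised gastrocnemius at 0.1 mg/kg/day (0.116), replicate 1 of exercised soleus at 1.0 (0.245), replicate 3 of exercised gastrocnemius at 0.1 (0.248) and replicate 3 of unexercised vehicle soleus (0.255). The first 2 of these gave the lowest signal of their group for every tested gene except Musk. The same 2 arrays had the highest summed signal of Schwann cell markers in the series, 88867 and 72754. Results were recomputed without the 3 arrays of lowest actin ratio. The slow-fibre signal of the gastrocnemius pieces varied widely within groups: Myh7, the slow myosin heavy chain, ran from 11.5 to 84953 across the 30 arrays. Below, a difference is a difference of group means of log2(signal + 12.4), with its standard error (SE), and p-values are from limma, adjusted by Benjamini-Hochberg over 21729 probe sets, with 0.05 as the threshold.

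**Figure D1:**
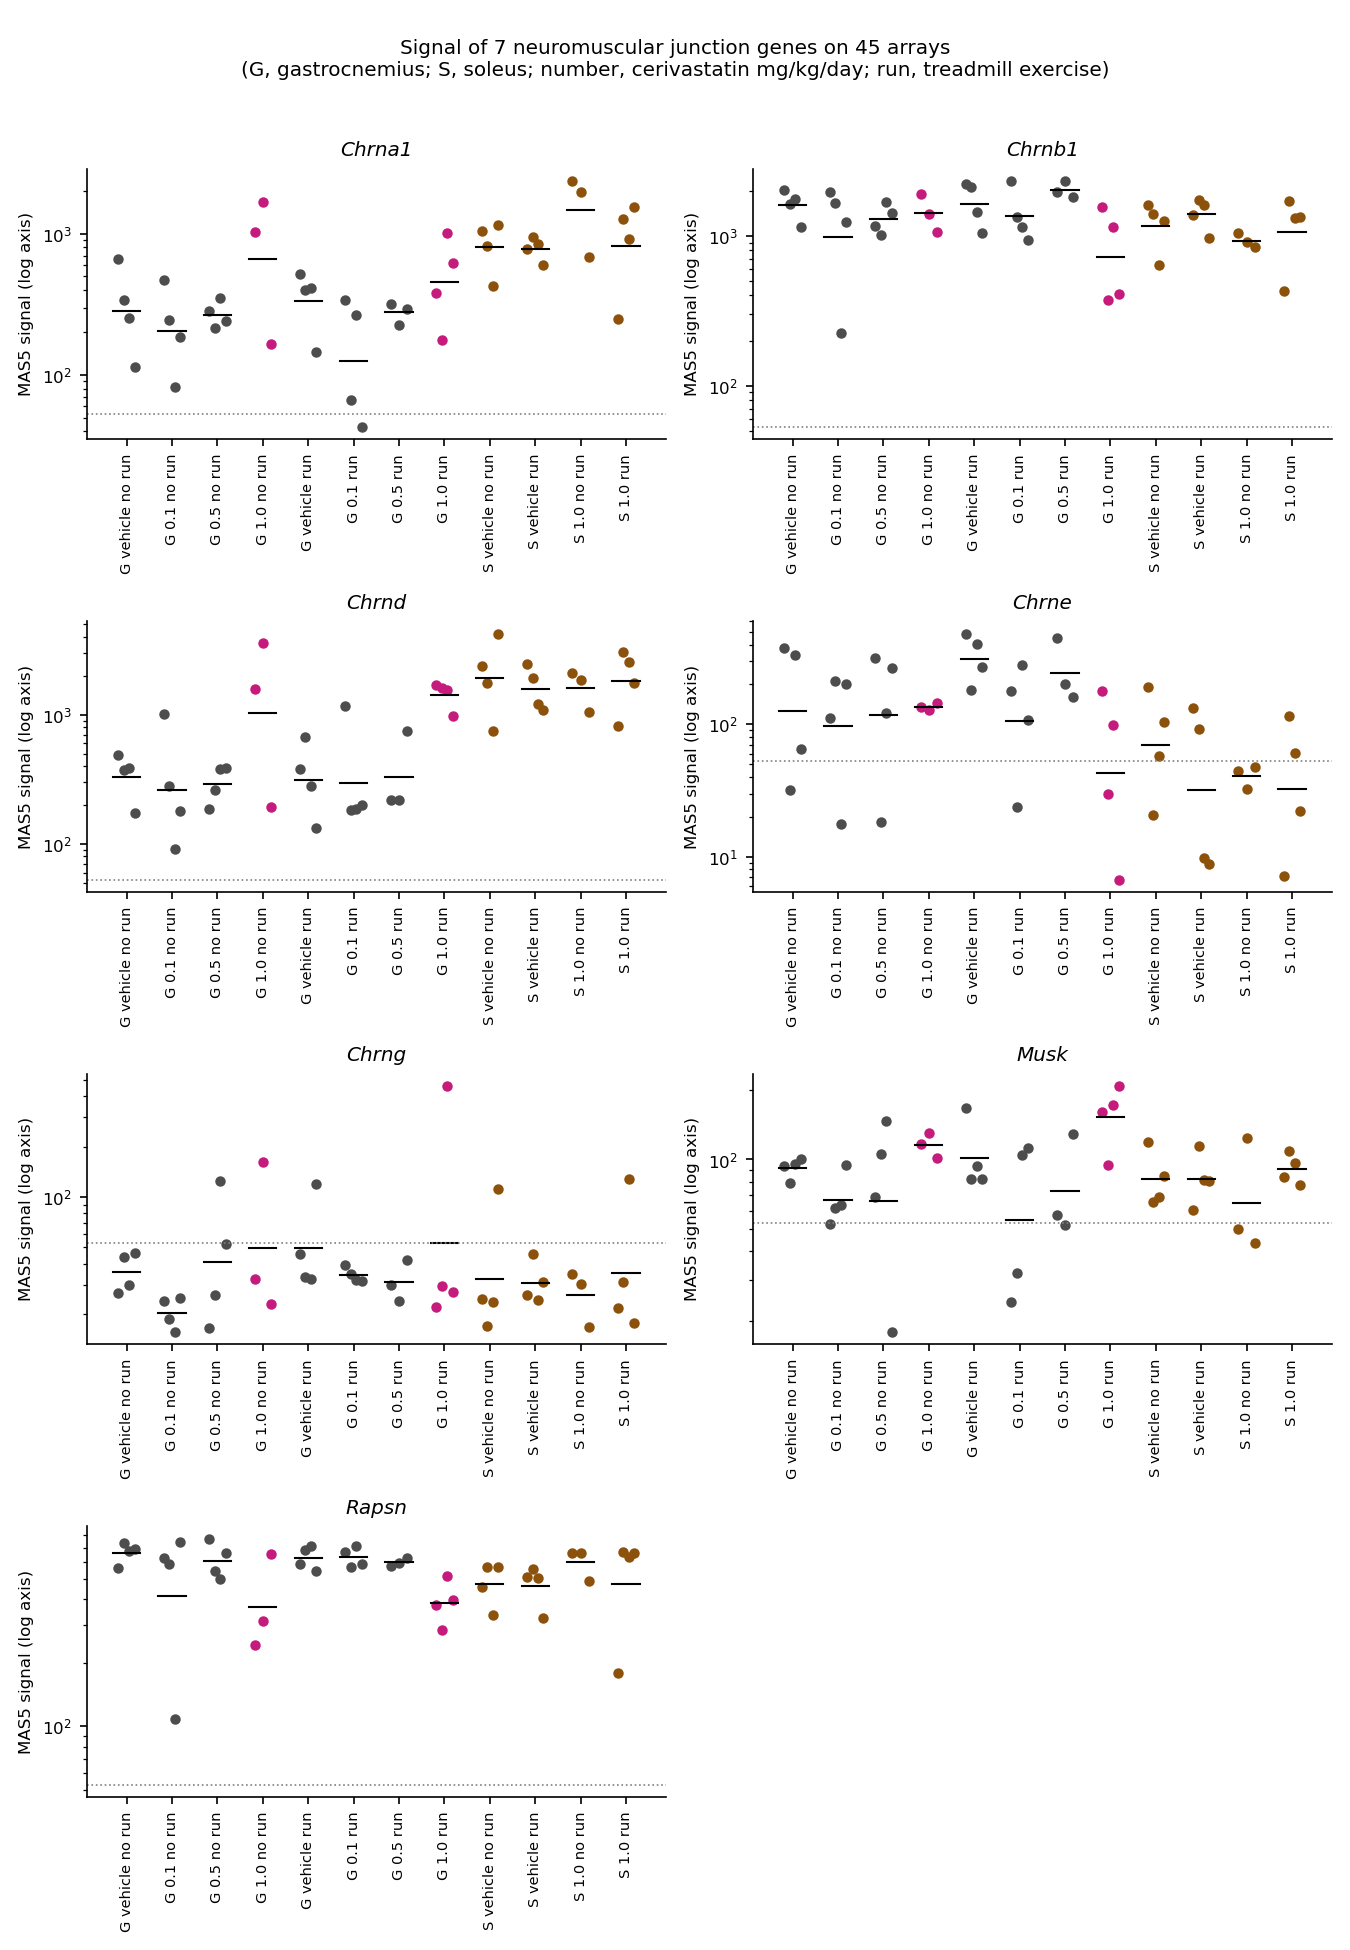
MAS5 signal (log axis) of the 7 measured genes on all 45 arrays, 1 point per array, by group on the x axis; short bars are geometric means and the dotted line is the filter signal of about 52.9. Chrnd was high in soleus and in the gastrocnemius at 1.0 mg/kg/day, Chrne was low in soleus, and Chrng stood above the dotted line on 6 arrays.

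The delta subunit, Chrnd, had higher group means in soleus and in gastrocnemius at 1.0 mg/kg/day than in the other groups. In gastrocnemius its mean signal lay between 304 and 434 in the vehicle, 0.1 and 0.5 mg/kg/day groups, exercised or not. At 1.0 mg/kg/day it was 1458 ± 330 (SD, n = 4) with exercise and 1782 ± 1704 (SD, n = 3) without. In soleus it was 2280 ± 1465 and 1674 ± 648 with vehicle (unexercised and exercised, SD, n = 4 each), and 1666 ± 547 (SD, n = 3) and 2042 ± 974 (SD, n = 4) at 1.0. All 12 groups ordered by mean log2 value thus ran from soleus through high-dose gastrocnemius to the other gastrocnemius groups, but every one of the 11 steps between neighbours was smaller than the larger of the 2 SDs.

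The epsilon subunit, Chrne, was lowest in soleus and in exercised gastrocnemius at 1.0. Its mean signal was highest in exercised gastrocnemius with vehicle, 335 ± 135 (SD, n = 4), followed by exercised gastrocnemius at 0.5, 270 ± 156 (SD, n = 3). The remaining gastrocnemius groups other than exercised 1.0 lay between 136 and 203. Exercised gastrocnemius at 1.0 had 78.5 ± 77.7 (SD, n = 4), and the 4 soleus groups had 41.5 to 93.3. Of 11 steps between neighbouring groups, 1 exceeded the larger SD, the step from exercised gastrocnemius at 0.5 to unexercised gastrocnemius at 1.0. Chrne is a dim probe set: 31 of 45 arrays were above the filter signal and 4 were below 12.4.

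For the other genes no step between neighbouring groups exceeded the larger SD. The alpha 1 subunit, Chrna1, which carries most of the acetylcholine binding site, had group means of 179 to 368 in gastrocnemius at vehicle, 0.1 and 0.5, of 961 ± 763 (SD, n = 3, unexercised) and 548 ± 360 (SD, n = 4, exercised) at 1.0, and of 791 to 1674 in soleus. The beta 1 subunit, Chrnb1, had its lowest group mean, 875 ± 583 (SD, n = 4), in exercised gastrocnemius at 1.0 and its highest, 2031 ± 261 (SD, n = 3), in exercised gastrocnemius at 0.5. Its dim second probe set was not tested, with a median signal of 18.4. Rapsn had group means of 391 to 667, and Musk was dim, with group means of 68.2 to 159.

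Cerivastatin at 1.0 mg/kg/day in exercised gastrocnemius gave the only drug comparison in which any of these genes passed the threshold. Chrnd rose and Chrne fell, and no array of the treated group overlapped the vehicle group for either gene. The arrays of Rapsn at its brighter probe set, which was not called, did not overlap either. The share of all probe sets without overlap is not given, for this or any comparison below. Chrnb1, Rapsn, Musk and Chrna1 did not pass. Over all probe sets tested, 23% were called higher and 20.4% lower in this comparison, so that 1 of 6 genes called higher and 1 of 6 called lower is near the background. The median difference of the 6 genes was -0.13, against -0.01 over all probe sets tested.

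Chrnd signal on the treated arrays was 1707, 1610, 1539 and 974, against 382, 668, 280 and 132 with vehicle. All 4 treated animals were above all 4 controls. The difference was 2.14 ± 0.72 (SE) on the log2 scale (limma, adjusted p = 0.0175). Without vehicle replicate 4, the lowest control, it was 1.75 and did not pass (limma, adjusted p = 0.0719).

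Chrne signal was 179, 29.5, 98.4 and 6.7 on the treated arrays, against 485, 181, 403 and 271 with vehicle. The highest treated array lay just under the lowest control, and the lowest treated array was below the offset of 12.4. The difference was -2.34 ± 0.82 (SE; limma, adjusted p = 0.0221). It missed the threshold on leaving out vehicle replicate 1 or 3 or treated replicate 2 or 4, with differences of -2.23 to -1.76 and adjusted p-values from limma of 0.0509 to 0.108.

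Chrnb1 signal was 1566, 374, 1149 and 411 on the treated arrays and 2220, 2106, 1441 and 1048 on the controls. Treated replicates 2 and 4 were low, and replicates 1 and 3 lay among the controls. The difference was -1.15 ± 0.48 (SE) and just missed the threshold (limma, adjusted p = 0.0546). It passed after median centring or quantile normalization, and without the 3 arrays of lowest actin ratio, none of which is in the groups compared (limma, adjusted p = 0.0102). It also passed without vehicle replicate 4 or treated replicate 1 or 3, with differences of -1.52 to -1.36 and adjusted p-values from limma of 0.0149 to 0.0398. Rapsn signal was 374, 284, 513 and 394 on the treated arrays, all below the controls at 585, 683, 715 and 541. Its difference, -0.69 ± 0.36 (SE), did not pass (limma, adjusted p = 0.126), but did without the 3 arrays of lowest actin ratio (limma, adjusted p = 0.0107). The dimmer second Rapsn probe set differed by -0.14 ± 0.49 (SE).

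Musk and Chrna1 overlapped between the groups. Musk signal was 161, 94.5, 173 and 208 on the treated arrays against 167, 82.5, 93.9 and 82.2, a difference of 0.54 ± 0.44 (SE; limma, adjusted p = 0.335). Chrna1 signal was 382, 176, 1014 and 619 against 515, 400, 411 and 147, a difference of 0.43 ± 0.66 (SE; limma, adjusted p = 0.631). Treated replicates 3 and 4 held the 2 highest Chrna1 signals of the 8 arrays.

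Markers of other cell types also moved in this comparison, in which 23% of all probe sets were called higher and 20.4% lower. All 13 tested macrophage markers rose, most of all Fcgr2b (6.29), Aif1 (5.22) and Cd68 (4.89), and their summed signal was 74647 to 163743 against 6482 to 8406 with vehicle. Of 8 tested fast-fibre genes, 7 fell, most of all Pvalb (-4.33), Casq1 (-2.93) and Actn3 (-2.42), with a summed signal of 96778 to 225052 against 518012 to 621307. None of the 7 slow-fibre genes was called. Their summed signal varied widely within both groups, at 3871 to 186277 against 3282 to 375703, so the lack of a call does not show that they were unchanged. Schwann cell markers rose for 2 of 6, Cnp and Pmp22, a count near the share of all probe sets called higher. The median difference of that list was 0.10, and its summed signal was 7647 to 15379 against 4168 to 5143. Of 10 motor axon markers 3 were tested and 1 rose, Gap43 (sum 1177 to 1530 against 598 to 901), while Chat, Slc18a3 and Slc5a7, which define cholinergic terminals, and Snap25, of nerve terminals in general, had median signals of 8.4 to 41.5 and exceeded the filter signal on 2 to 14 of 45 arrays. Of 7 satellite cell and regenerating fibre markers 1 fell, Des, and none of 4 erythroid markers was called. Des and Pmp22 lost their calls on leaving out single arrays, 6 of 8 for each, and Gap43 lost its call with the mean over its probe sets (0.83). The part of these cell types in the receptor results was not tested, and in bulk muscle fewer fibres and less RNA per fibre cannot be told apart.

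**Figure D2:**
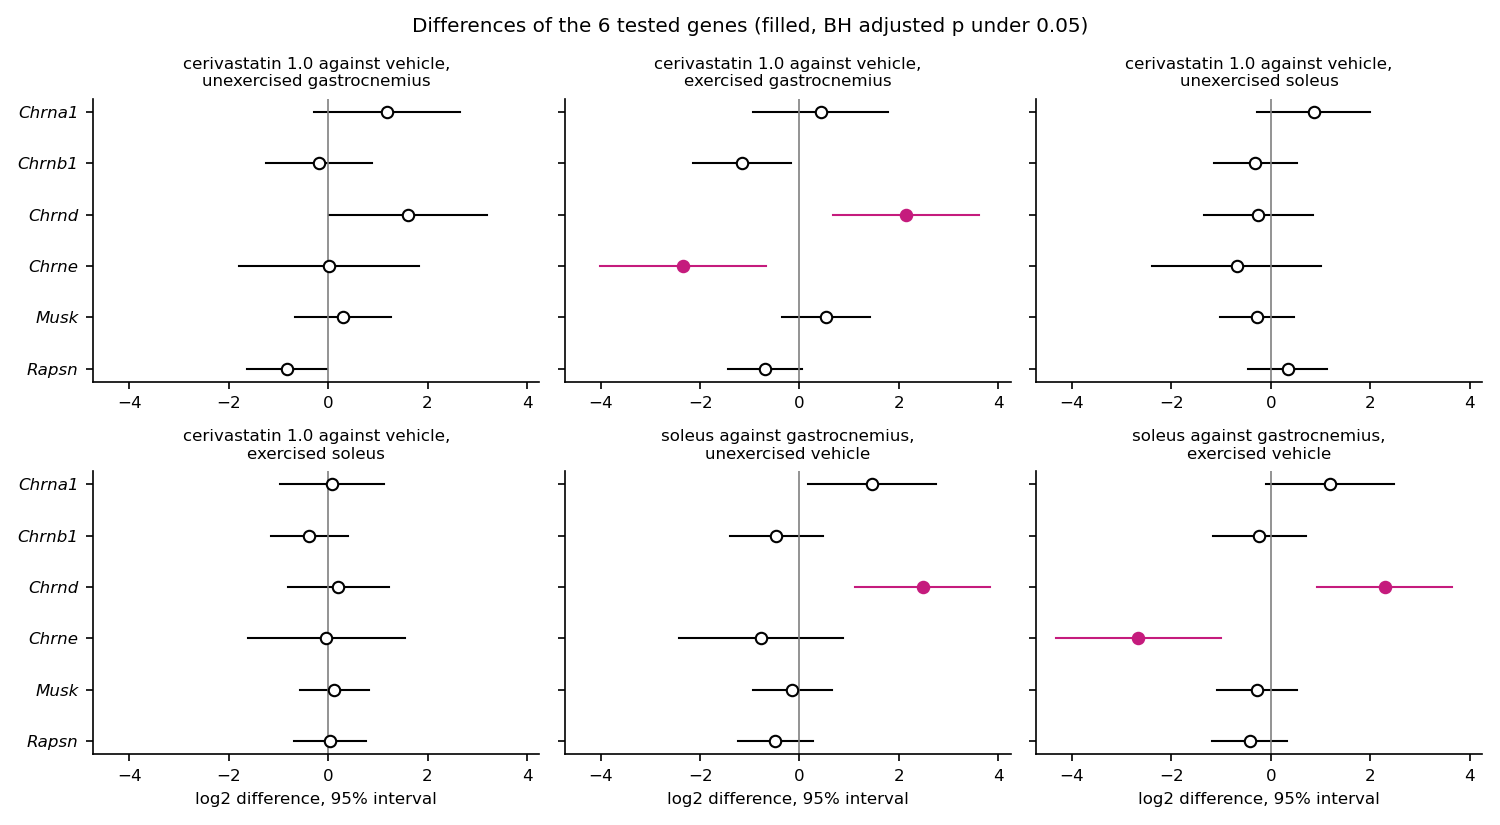
Log2 differences of the 6 tested genes with 95% intervals in 6 comparisons, filled where the limma adjusted p was under 0.05. Chrnd was filled in 3 panels and Chrne in 2, and no gene was filled at 1.0 mg/kg/day in soleus.

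In unexercised gastrocnemius the same dose gave no call among the 6 genes, while 5.7% of all probe sets were called higher and 3.81% lower. Chrnd signal was 1574, 3581 and 192 on the treated arrays against 485, 370, 388 and 172 with vehicle. Replicates 1 and 2 were far above the controls and replicate 3 lay among them. The difference was 1.61 ± 0.78 (SE; limma, adjusted p = 0.174). Chrna1 followed the same arrays, with 1032, 1686 and 165 against 665, 339, 254 and 114, a difference of 1.19 ± 0.71 (SE; limma, adjusted p = 0.286). Rapsn was low on the same 2 arrays, with 241, 316 and 653 against 562, 735, 678 and 690. Its difference was -0.83 ± 0.39 (SE) (limma, adjusted p = 0.169). The dimmer second Rapsn probe set did not show this, at 145 to 157 against 100 to 197, a difference of -0.07 ± 0.53 (SE).

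Replicate 3 of this group stood apart from the other 2 in more than the receptor genes. Its macrophage sum was 12367 against 90624 and 100419 in replicates 1 and 2, its fast-fibre sum 447893 against 178537 and 126036, and its Schwann cell sum 44429 against 9659 and 14566. Replicate 3 was singled out after its values were seen. Its Chrnd, Chrna1 and Rapsn signals lay among the controls, so that leaving it out had to widen their differences. Without it, Chrnd differed by 2.79 (limma, adjusted p = 0.00687) and Chrna1 by 2.15 (limma, adjusted p = 0.0268). Rapsn differed by -1.23 at its brighter probe set (limma, adjusted p = 0.0312). Without replicate 3, 5823 probe sets in place of 2065 were called, and without replicate 1 or 2 the count was 5 and 2. In the group as a whole 12 of 13 macrophage markers and 1 of 6 Schwann cell markers rose, beside 5.7% of all probe sets. Of 8 fast-fibre genes 4 fell, beside 3.81% of all probe sets. Chrne was even across the 3 treated arrays, at 135, 128 and 145, within the range of its controls at 379, 31.7, 334 and 65, with a difference of 0.02 ± 0.88 (SE). Chrnb1 differed by -0.18 ± 0.52 (SE). Musk signal, at 117, 130 and 102, was just above all controls, 79.3 to 101, with a difference of 0.30 ± 0.47 (SE; limma, adjusted p = 0.723).

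Whether exercise changed the drug's effect was tested as an interaction. No gene of the 6 passed, and no probe set did either (0% in each direction, with 1375 probe sets and none of the 6 genes at an unadjusted limma p under 0.05). Chrne had the largest interaction, -2.36 with a 95% interval from -4.83 to 0.11 (limma, adjusted p = 0.705). That of Chrnd was 0.53, with an interval from -1.64 to 2.70. The fall of Chrne with exercise and its flat values without are therefore not shown to differ.

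The lower doses and exercise alone gave no calls. For 0.1 and 0.5 mg/kg/day against vehicle, with and without exercise, and for exercise in vehicle gastrocnemius, limma called 0% of probe sets in each direction and none of the 6 genes, and 593 to 957 probe sets but none of the genes had an unadjusted p under 0.05. The widest differences were in exercised muscle at 0.1, where Chrne differed by -1.38 ± 0.82 (SE) and Chrna1 by -1.28 ± 0.66 (SE; limma, adjusted p of 1 for both). With vehicle the Chrne mean was 335 with exercise and 203 without, a difference of 1.15 ± 0.82 (SE; limma, adjusted p = 1). Within each exercise state all doses were compared with the same vehicle animals. Chrnd signal was high on single arrays at the lower doses, at 1016 in replicate 1 of unexercised 0.1, 1167 in replicate 1 of exercised 0.1 and 741 in replicate 3 of exercised 0.5, against 90.6 to 384 on the other 12 arrays of the 0.1 and 0.5 groups.

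Those arrays also had the highest slow-fibre signal of their groups. Myh7 was 70521, 66466 and 75459 on them. Replicate 3 of unexercised 0.5, with a similar Myh7 of 74040, had a Chrnd signal of only 382. Over the 23 gastrocnemius arrays of the vehicle, 0.1 and 0.5 groups, Chrnd correlated with the mean log2 signal of 7 slow-fibre genes at a Pearson r of 0.58 and a Spearman rho of 0.71, and at r = 0.56 without the 2 arrays farthest from the median. These arrays share scaling and fall into 6 groups, and the correlation is a description. Over the same arrays Chrnb1 gave r = 0.334 (rho 0.555) and Chrna1 r = 0.263 (rho 0.448). Chrne and Musk each gave r = -0.26, Rapsn -0.04 and Chrng -0.08. In exercised high-dose replicates 2 and 4, Myh7 was 91.9 and 1719, and Chrnd 1610 and 974. With slow-fibre signal as a covariate, chosen after seeing the data, the Chrnd difference between exercised 1.0 and vehicle was 2.14 ± 0.66 (SE) (limma, adjusted p = 0.00976).

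**Figure D3:**
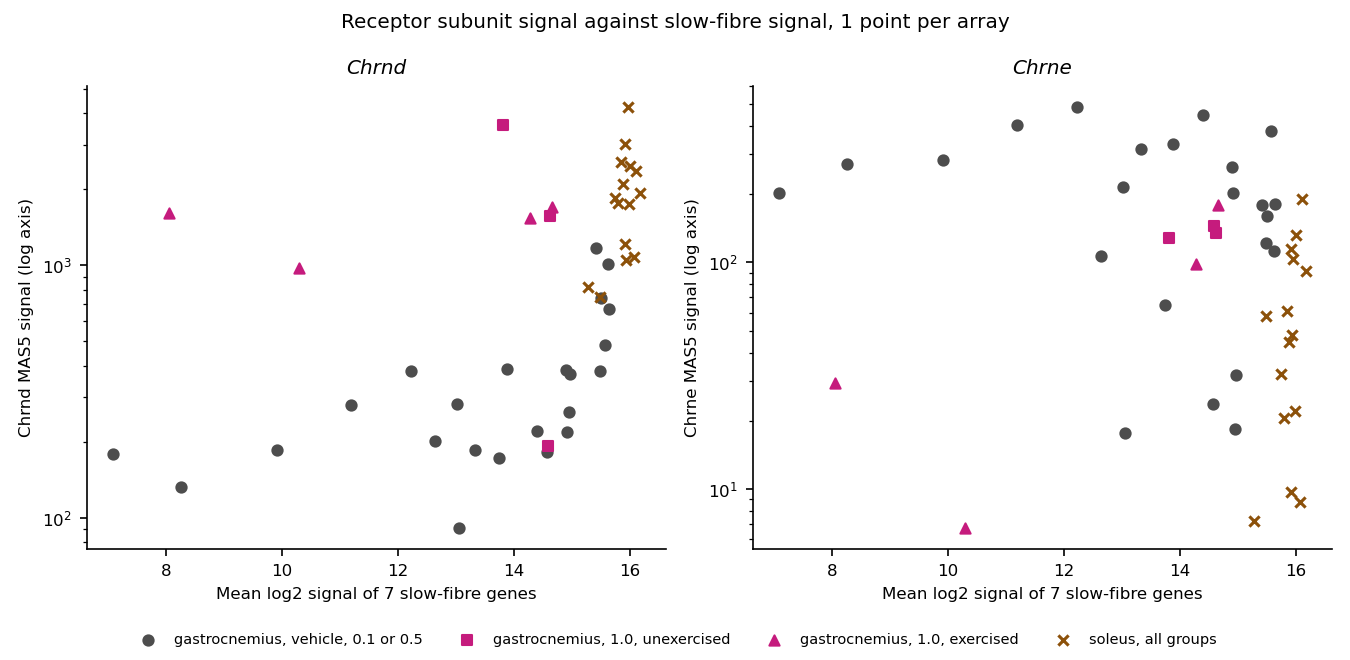
MAS5 signal of Chrnd and Chrne (log axis) against the mean log2 signal of 7 slow-fibre genes, 1 point per array. At 1.0 mg/kg/day, 6 of 7 gastrocnemius arrays lay at a Chrnd signal of 974 or more, and 2 of these had a slow-fibre value of 10.29 or less.

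In soleus the highest dose gave no call among the 6 genes, and limma called 0% of probe sets in each direction, unexercised or exercised. Unadjusted p-values under 0.05 were found for 593 and 1156 probe sets and for none of the 6 genes. Exercise alone in vehicle soleus also gave 0% called, with 645 probe sets and none of the genes under 0.05 before adjustment. Chrnd signal was 2097, 1852 and 1051 at 1.0 without exercise against 2369, 1763, 751 and 4236 with vehicle, and 817, 3038, 2562 and 1752 with exercise against 2471, 1928, 1216 and 1082. The groups overlapped fully, with differences of -0.26 ± 0.52 and 0.21 ± 0.48 (SE). The 95% interval of the exercised difference ran from -0.81 to 1.22. Chrna1 had its highest group mean of the series in unexercised soleus at 1.0, with 2358, 1976 and 688 against 1045, 815, 430 and 1155, a difference of 0.86 ± 0.54 (SE; limma, adjusted p = 1). Chrne differed by -0.69 ± 0.80 without and -0.04 ± 0.74 with exercise (SE), Chrnb1 by -0.32 ± 0.39 and -0.38 ± 0.36, Rapsn by 0.34 ± 0.37 and 0.04 ± 0.35, and Musk by -0.28 ± 0.35 and 0.13 ± 0.33.

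Whether the drug acted differently on the muscles was tested as an interaction of muscle and dose. With exercise, 11.6% of probe sets had a higher and 13.7% a lower drug effect in soleus than in gastrocnemius, and none of the 6 genes passed. Chrnd had an interaction of -1.93 ± 0.95 (SE; limma, adjusted p = 0.134) and Chrne of 2.31 ± 1.16 (SE; limma, adjusted p = 0.142). Without exercise 1 probe set in each direction was called, 0.0046% of those tested, and none of the 6 genes, with Chrnd at -1.87 ± 1.03 (SE; limma, adjusted p = 0.33) and Rapsn at 1.17 ± 0.56 (SE; limma, adjusted p = 0.269). The dimmer second Rapsn probe set had an interaction of 0.25 ± 0.72 (SE) without exercise. The drug's effect on these genes is thus not shown to differ between the muscles. Without replicate 3 of unexercised gastrocnemius at 1.0, the Chrnd interaction passed, at -3.05 (limma, adjusted p = 0.0266). That array was singled out after its values were seen.

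Between the muscles of vehicle animals, Chrnd was higher in soleus and Chrne was lower there with exercise. Without exercise 3.26% of probe sets were called higher and 3.76% lower in soleus, and 1 of the 6 genes, Chrnd, was called. Its signal was 2369, 1763, 751 and 4236 in soleus against 485, 370, 388 and 172 in gastrocnemius, with no overlap and a difference of 2.48 ± 0.67 (SE; limma, adjusted p = 0.0202). It missed the threshold without gastrocnemius replicate 4 or soleus replicate 1 or 4, with differences of 2.10 to 2.38 and adjusted p-values from limma of 0.0598 to 0.0865. With exercise 6.33% were called higher and 6.83% lower. Chrnd was again higher, with 2471, 1928, 1216 and 1082 against 382, 668, 280 and 132, a difference of 2.29 ± 0.67 (SE; limma, adjusted p = 0.0194). It missed the threshold without gastrocnemius replicate 4 (1.90; limma, adjusted p = 0.0933) or soleus replicate 1 (2.08; limma, adjusted p = 0.0629).

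Chrne was lower in exercised soleus, with 132, 91.5, 9.7 and 8.8 against 485, 181, 403 and 271, a difference of -2.66 ± 0.82 (SE; limma, adjusted p = 0.0256). The groups did not overlap. The call was lost without gastrocnemius replicate 1, 3 or 4 or soleus replicate 3 or 4, with differences of -2.73 to -2.24 and adjusted p-values from limma of 0.0517 to 0.105. Without exercise Chrne overlapped between the muscles and differed by -0.77 ± 0.82 (SE). Chrna1 was 1.45 ± 0.63 (SE) higher in unexercised soleus (limma, adjusted p = 0.163) and 1.19 ± 0.63 (SE) higher in exercised soleus, where the arrays did not overlap (776.6, 941.5, 846.0 and 600.2 against 515.0, 400.2, 411.1 and 146.6; limma, adjusted p = 0.218). Chrnb1, Musk and the brighter Rapsn probe set had differences of -0.49 to -0.14, none called. The dimmer second Rapsn probe set differed by -0.275 ± 0.472 (SE) without and 0.458 ± 0.472 (SE) with exercise. Fast-fibre genes were lower in soleus for 6 of 8 in both states, and slow-fibre genes higher for 0 of 7 without and 6 of 7 with exercise. The gastrocnemius and soleus comparisons share vehicle animals with the drug comparisons.

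The gamma subunit, Chrng, which marks the fetal receptor, was near background on most arrays and was not tested. Its median signal was 30.4, and 6 of 45 arrays exceeded the filter signal. The highest was replicate 3 of exercised gastrocnemius at 1.0, at 458, while the other 3 animals of that group gave 22.1, 29.4 and 27.2. The next was replicate 2 of unexercised gastrocnemius at 1.0, at 162, with 32.6 and 23 in replicates 1 and 3. The 4 others were at 112 to 129 and were spread over vehicle soleus, high-dose soleus, exercised vehicle gastrocnemius and unexercised gastrocnemius at 0.5.

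The pair of gastrocnemius arrays with the highest Chrng also had the highest embryonic and perinatal myosin signal in that muscle. Myh3 was 3159 and 2487 on them, against 15.7 to 1562 on the other 28 gastrocnemius arrays, and Myh8 was 523 and 642 against 8.0 to 310. Their Chrna1 was 1014 and 1686, and their Myog, the myogenic factor, was 3986 and 8332. Myog was also high in replicate 1 of both high-dose groups, at 4805 and 4170, where Chrng was 32.6 and 22.1. In soleus Myh3 was 3670 to 9791 on every array, so that it marks no such array there. These arrays and the Myog, Myh3 and Myh8 values were singled out after they were seen.

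**Figure D4:**
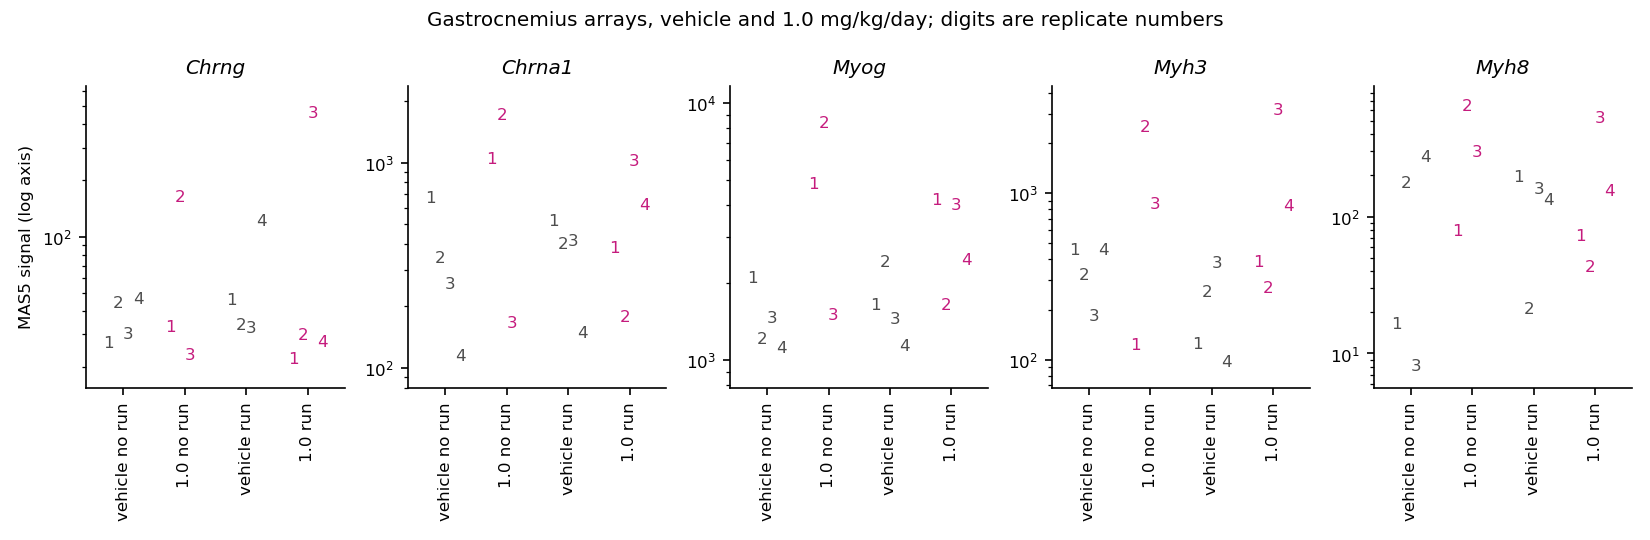
MAS5 signal (log axis) of Chrng, Chrna1, Myog, Myh3 and Myh8 on the vehicle and 1.0 mg/kg/day gastrocnemius arrays, with each array drawn as its replicate number. Unexercised replicate 2 and exercised replicate 3 at 1.0 were the highest in the Chrng, Myh3 and Myh8 panels.

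Other genes of the synapse were followed in 4 lists, in gastrocnemius unless soleus is named. In the list of synapse organisers and signalling partners, 10 of 29 tested genes rose and 4 fell at 1.0 with exercise, with a median difference of 0.42 against -0.01 over all probe sets, of which 23% were called higher and 20.4% lower. Erbb3, a neuregulin receptor that Schwann cells also express, rose most, by 2.82 ± 0.36 (SE, 408 against 39.6 mean signal). Nes, an intermediate filament protein of synaptic and regenerating fibres, rose by 1.70 ± 0.39, and Fyn, a Src-family kinase, by 1.53 ± 0.36. Pdzrn3, a ubiquitin ligase that acts on Musk, fell (-1.65 ± 0.29), as did Dvl1, a Wnt-pathway adaptor (-1.38 ± 0.21), Colq, the collagen tail that anchors acetylcholinesterase (-1.31 ± 0.46), and Dnaja3 (-0.96). Only 6 rose without treated replicate 2 or without treated replicate 4, and 2 fell without either of these or vehicle replicate 2 or 3. Without exercise 2 rose, Erbb3 (2.19 ± 0.38) and Cttn (1.03 ± 0.25), and 1 fell, Pdzrn3 (-1.01 ± 0.31), with a list median of 0.17 against 0.03 over all probe sets, of which 5.7% were called higher and 3.81% lower. Without treated replicate 3 of the unexercised group 4 rose and 3 fell, without replicate 1 or 2 neither count was above 0, and the fall of Pdzrn3 was also lost without any single vehicle array. The call of Colq with exercise was lost without vehicle replicate 2 or 3 or treated replicate 2 or 4 (-1.21 to -0.82; limma, adjusted p of 0.0582 to 0.147).

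In the list of the dystrophin and utrophin complex, the synaptic lamina and synaptic channels, 7 of 23 rose and 10 fell at 1.0 with exercise, beside 23% and 20.4% of all probe sets, with a median difference of -0.35. Dtnb, a dystrobrevin, rose by 3.48 ± 0.71 (SE), at 438 against 24.6 mean signal, the vehicle mean being below the filter signal. Itga7, a laminin receptor, rose by 1.80 ± 0.44, and Lama4, a synaptic laminin chain also made by vessels, by 1.72 ± 0.37. Kcnj12, an inward-rectifier potassium channel, fell (-3.09 ± 0.65), as did Sgca, a sarcoglycan (-2.29 ± 0.45), and Scn4a, the skeletal muscle sodium channel (-2.28 ± 0.60). Without exercise 1 rose, Lamb1 (1.08), and 1 fell, Sspn (-1.31), beside 5.7% and 3.81% of all probe sets, with a list median of -0.26. Leaving out any array other than treated replicate 3 took both counts to 0, while without that array 4 rose and 7 fell. With the mean over its probe sets Lama4 with exercise was no longer called (0.70; limma, adjusted p = 0.0834).

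In the list of denervation-response genes, 5 of 26 rose and 5 fell at 1.0 with exercise, with a median difference of 0.24. Both counts are near the 23% higher and 20.4% lower of all probe sets. Ankrd1, a stress-induced sarcomere protein, rose by 2.08 ± 0.79 (SE), Runx1, a transcription factor induced in denervated muscle, by 2.07 ± 0.41, and Cpt1a, a mitochondrial fatty acid transporter enzyme, by 1.97 ± 0.51; the others were Gadd45a and Nnmt. Ky, a sarcomere-associated protein, fell (-4.85 ± 1.11), as did Pfkfb3, a regulator of glycolysis (-2.37 ± 0.49), Myf6, a myogenic factor of mature fibres (-1.44 ± 0.48), Gpc1 and Hdac4. The count of rises was 3 without vehicle replicate 2 or 4 or treated replicate 1 or 3, and the count of falls was 3 without treated replicate 2 or 4. Without exercise 4 rose, Ankrd1, Runx1 (2.07 ± 0.44), Cdkn1a and Fbxo30, and 1 fell, Gpc1, beside 5.7% and 3.81% of all probe sets, and the list median was 0.89 against 0.03 over all probe sets. Without treated replicate 3 of the unexercised group 9 rose and 3 fell, and without replicate 1 or 2 none did, while 2 and 1 rose, and none fell, without vehicle replicate 1 and 2. With exercise, Ankrd1 was not called without vehicle replicate 2 or 4 or treated replicate 1 or 3 (1.37 to 2.04; limma, adjusted p of 0.0591 to 0.168), and Myf6 not without treated replicate 2 or 4 (-1.28 and -1.08; limma, adjusted p of 0.0573 and 0.0891). Of 7 tested genes among the other receptor subunits and cholinesterase, 1 fell, Lynx1, a modulator of nicotinic receptors (-2.61 ± 0.55). None of these 4 lists had a call at 1.0 in soleus, with or without exercise, where 0% of all probe sets were called. Genes named in the unexercised comparison, and those beyond the largest 3 in each direction, were picked after their values were seen.

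**Figure D5:**
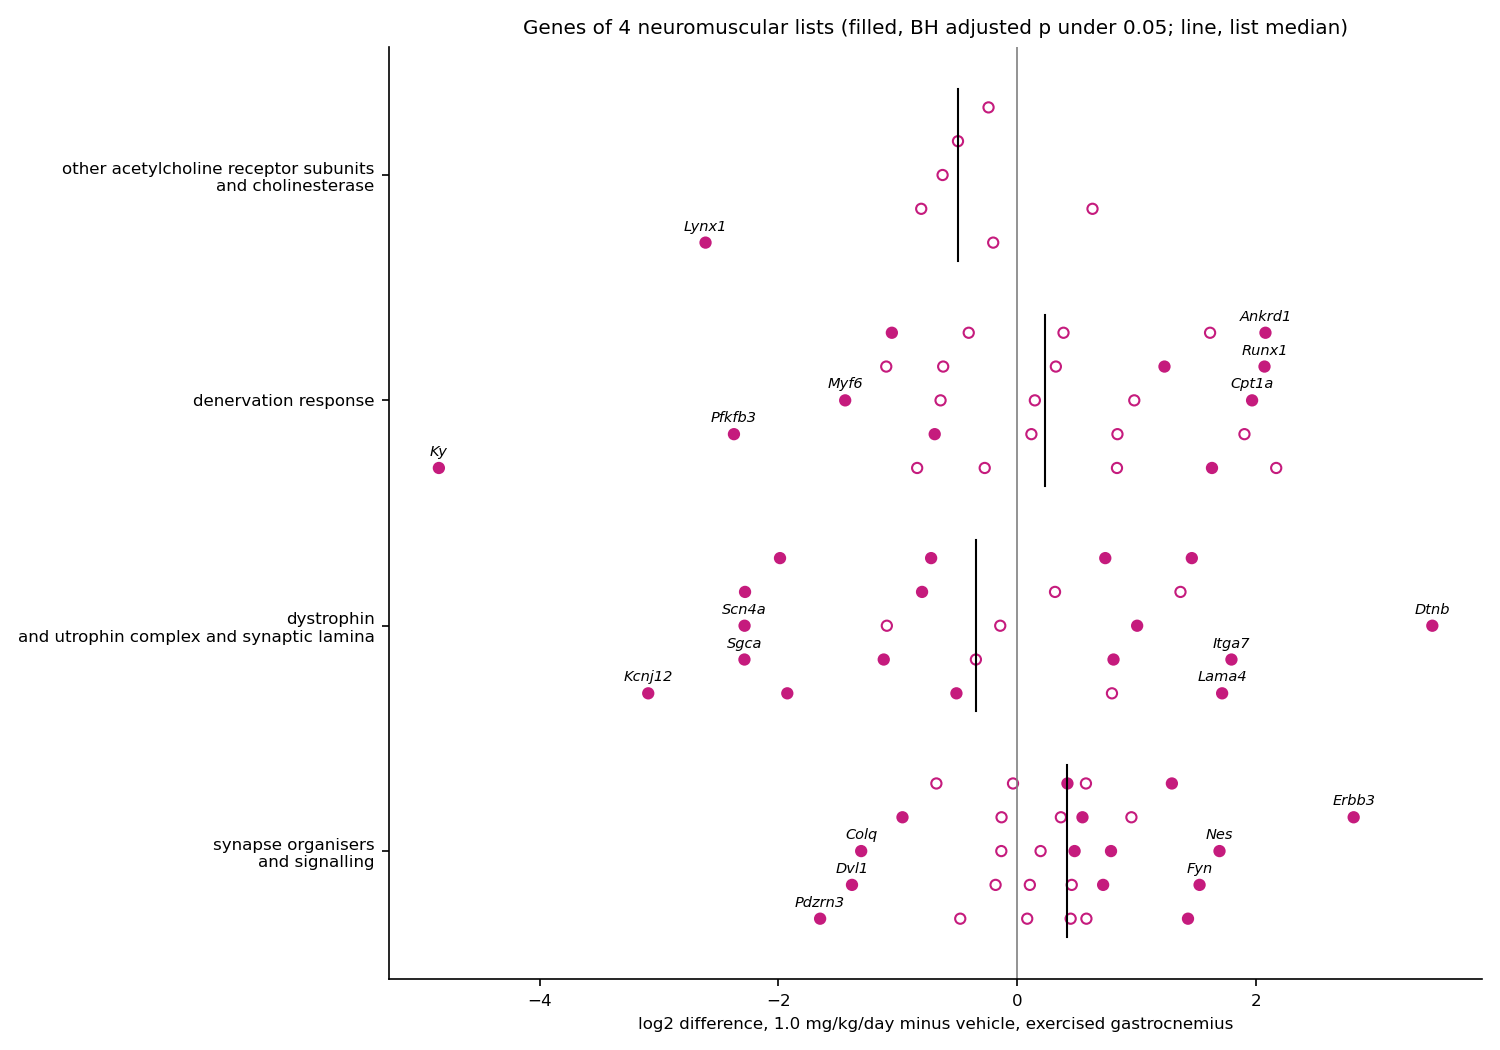
Log2 difference of each tested gene of 4 neuromuscular lists between 1.0 mg/kg/day and vehicle in exercised gastrocnemius, filled where the limma adjusted p was under 0.05, with the list median as a line; vertical offsets only separate points. Each of the 3 longer lists had filled points on both sides of 0.

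Between soleus and gastrocnemius, Colq was 1.59 ± 0.42 (SE) higher in unexercised and 1.72 ± 0.42 higher in exercised soleus. Of 29 tested genes of the synapse organiser list, 3 were higher and 2 lower without exercise, beside 3.26% and 3.76% of all probe sets. With exercise 3 were higher and 4 lower, beside 6.33% and 6.83% of all probe sets. Cttn and Nes were the other genes higher in both states, and Pak1 and Cdc42 were lower in both, with Pdzrn3 and Crk also lower with exercise.

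The 6 genes differed in which genes they resembled most over the 45 arrays. Chrna1 was most like Chrnd, at a Pearson r of 0.83 (0.74 within gastrocnemius and 0.66 within soleus), then Ciao2b and Ssh2. Chrnd was most like Ampd3 (0.90 over all arrays, 0.87 and 0.49 within the muscles), Arpp19 and Sln, the sarcolipin of slow and stressed fibres. Chrnb1 was most like Ghitm (0.89, 0.91 and 0.84), Cox17 and Tfb2m, which are mitochondrial genes, and Rapsn most like Pabpc4 (0.89, 0.91 and 0.90), Cox14 and P2ry1. Chrne was most like Exosc5 (0.74, 0.73 and 0.57), Stx4 and Pdp1, and Musk most like Nop14 (0.60, 0.65 and 0.42), Nthl1 and Arhgap45. The arrays fall into 2 muscles and share scaling and RNA quality, and these values are a description over 11683 other genes. Among the receptor subunits themselves, Chrnb1 and Chrne had r = 0.66 within gastrocnemius and 0.46 within soleus, while Chrnd and Chrne had -0.09 and 0.65.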

How the data were processed

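The deposited values were MAS5 signal intensities of Affymetrix rat arrays made by the authors, per the submitters' processing notes, and share a trimmed mean; the MAS5 version is not given in the sources used here. Of 31099 probe sets, 57 control probe sets were left out. Intensities were used as log2(signal + 12.4), the offset being the 10th percentile of all values. Probe sets with a mean log2 under the 30th percentile (6.03) were dropped, leaving 21729. Groups came from the sample labels. Differences were fitted with limma 3.58.1 in R 4.3.3 (lmFit, contrasts.fit, eBayes with trend): 30 gastrocnemius arrays together, 15 soleus arrays together, and all 45 for comparisons between muscles, 15 comparisons in all, with Benjamini-Hochberg adjustment over all tested probe sets. The script was tested on simulated data.

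All probe sets with 1 of the 8 symbols were used; the brightest tested one represented its gene. Gene symbols came from the platform annotation: 20826 probe sets had 1 symbol, 436 several and 9780 none. From each list the 3 largest called rises and falls at 1.0 mg/kg/day with exercise were named, and for each tested gene the 3 most correlated genes. The genes and the 11 lists (4 neuromuscular, 7 of cell type or fibre markers) were chosen with earlier results of these data known. Same-numbered replicates showed no clear pairing: 7 of 45 correlations of deviations exceeded 0.1, and no comparison had all pairs over 0.1. Such correlations cannot show whether both muscles came from the same animals. The labels state no pairing, and all arrays were fitted as independent. No 2 arrays held identical values. Alternatives are given in the closing section; the slow-fibre covariate and leaving out the 3 arrays of lowest actin ratio were chosen after seeing the data. For arrays, the small number per group limits the precision.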

Additional observations from a re-analysis of the deposited data

Results flagged for a closer look

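In 63 combinations of gene and group of 4 arrays, 5 arrays lay far from the other 3 of their group by Dixon's test, which flags about 1 in 20 by chance. Chrnd was 1167.3 in replicate 1 of exercised gastrocnemius at 0.1 mg/kg/day, against 181.4 to 200.8 in the others. Chrng was 458.3 in replicate 3 of exercised gastrocnemius at 1.0, against 22.1 to 29.4, and 112.3 in replicate 4 of unexercised vehicle soleus, against 16.9 to 24.6. Rapsn was 108.3 in replicate 3 of unexercised gastrocnemius at 0.1, against 586.9 to 746.9, and 179.3 in replicate 1 of exercised soleus at 1.0, against 631.2 to 668.2. Both of these Rapsn arrays were among the 3 with the lowest ratio of 5' to 3' actin signal. Both also had the highest Schwann cell sums of the series, 88867 and 72754. The part of RNA quality or of tissue content in these values was not tested.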

How the results depend on the processing

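Differences are log2, and 1.0 stands for gastrocnemius at 1.0 mg/kg/day against vehicle. The cause of each change below was not tested. Of the differences of the 6 tested genes under settings other than leaving out an array, 490 kept direction and side of the threshold, 26 passed newly, 0 lost a call and 11 changed sign; on leaving out single arrays the numbers were 449, 7, 15 and 16. Genes called lower at 1.0 with exercise numbered 1, but 2 with median centring, with only the groups compared, with the replicate block or with the slow-fibre covariate, and 3 with quantile normalization, arrayWeights or without the 3 arrays of lowest actin ratio. Only the groups compared gave 2 genes higher in exercised vehicle soleus than in gastrocnemius, and 1 lower muscle interaction with exercise. arrayWeights gave 2 higher and 1 lower at 1.0 unexercised, 2 lower exercise interactions, and 2 higher in unexercised vehicle soleus than in gastrocnemius. It also gave muscle interactions of 1 higher and 1 lower unexercised and 3 higher exercised. Without the 3 low-actin arrays, 1 was lower at 1.0 unexercised and 1 muscle interaction was higher in each state. Uncalled differences that changed sign were Chrne at 1.0 unexercised (-0.093 with an offset of 50, -0.071 median centring, -0.045 quantile, -0.043 replicate block) and Chrnb1 there (0.151 arrayWeights). In the exercise interaction Rapsn (-0.018 quantile) and Chrnd (-0.09 arrayWeights) changed sign. So did Chrna1 in the exercised muscle interaction (0.257 arrayWeights, 0.207 without the low-actin arrays). With the mean over probe sets, Rapsn changed sign in exercised vehicle soleus against gastrocnemius (0.015), as did Chrnb1 in the unexercised muscle interaction (0.239). Leaving out single arrays gave, at 1.0 unexercised, Chrne -0.562 to 0.489, Chrnb1 -0.395 to 0.024 and 0 to 2 genes higher and 0 to 1 lower; in the exercise interaction, Chrnd -0.654 to 1.413 and Rapsn -0.162 to 0.535; in the muscle interactions, Chrna1 -1.294 to 0.335 and Chrnb1 -0.42 to 0.077 unexercised, with 0 to 1 gene lower, and Chrna1 -0.791 to 0.207 exercised; at 1.0 with exercise, 0 to 1 higher and 0 to 2 lower; and in soleus against gastrocnemius, 0 to 1 higher in both states and 0 to 1 lower exercised. All probe sets called at 1.0 unexercised numbered 2065, against 0 with only the groups compared, 10683 with arrayWeights, 4054 without the low-actin arrays and 2 to 5823 on leaving out single arrays. arrayWeights also gave 1974 for the exercise interaction (0 otherwise), 3308 for unexercised and 5852 for exercised soleus against gastrocnemius (1526 and 2861), and 7105 and 9948 for the muscle interactions (2 and 5491). Without the low-actin arrays, unexercised soleus against gastrocnemius gave 2627 and the unexercised muscle interaction 827. Leaving out single arrays gave 0 to 3558 for that interaction, the highest without gastrocnemius 1.0 replicate 3, and as few as 745 (unexercised) and 1752 (exercised) for soleus against gastrocnemius. The lower doses, at 0, gave at most 4 under any setting. The replicate block, whose numbers showed no clear pairing of the arrays, called 1541 probe sets at 1.0 unexercised. Low signal limits Chrne, Musk and Chrng.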
